A study of Rattus norvegicus with 294 samples.

Results

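Mepe, Dmp1, Spp1 and Ibsp, 4 genes that encode secreted acidic glycoproteins of mineralized matrix (the SIBLING family), were followed in bone cells captured from rats given an antibody against sclerostin. They were chosen by name: all probe sets annotated to 1 of these genes alone were taken, and each gene had 1 such probe set, so 4 of the 14217 genes on the array with such a probe set are described (Mepe 1387330_at, Dmp1 1393756_at, Spp1 1367581_a_at, Ibsp 1368416_at). Sclerostin, secreted by osteocytes, restrains Wnt signalling and so the formation of bone. The antibody had been altered to be less immunogenic in rats. All rats, vehicle rats included, were ovariectomized female Sprague-Dawley rats, operated on at 6 months of age and left untreated for 8 weeks before dosing. They received weekly subcutaneous vehicle, 3 mg/kg or 50 mg/kg, and were killed on days 8, 29, 85 and 183. In the treatment-free phase that followed, rats that had been given 3 mg/kg were taken on days 197 and 267, and rats that had been given 50 mg/kg on days 237 and 309, each day with its own vehicle group. RNA was amplified from laser-captured osteocytes (97 arrays), osteoblasts (97 arrays) and lining cells (100 arrays) of a lumbar vertebra. Groups held 5 arrays with these exceptions: in osteocytes 3 mg/kg day 29 had 4 and 50 mg/kg day 85 had 3, and in osteoblasts 3 mg/kg day 8, 50 mg/kg day 85 and 50 mg/kg day 237 had 4 each.

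The family is clustered in the genome, and its members are unfolded, heavily phosphorylated proteins with an integrin-binding site and an affinity for calcium and hydroxyapatite. Mepe is made by osteocytes and late osteoblasts, and an acidic peptide cut from it holds back mineralization. Dmp1, also an osteocyte product, promotes osteocyte maturation and mineralization and restrains the phosphate hormone Fgf23. Spp1 (osteopontin) inhibits crystal growth and anchors cells to bone, and osteoblasts, osteoclasts, macrophages and osteocytes all make it. Ibsp (bone sialoprotein) nucleates mineral and marks osteoblasts that lay down matrix.

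RefSeq places the 4 genes side by side on rat chromosome 14 in the order Spp1, Mepe, Ibsp and Dmp1, with Dspp, the gene of a related dentin protein, next to Dmp1. Their upstream sequences are shown because neighbouring genes of a single cluster gave different responses. Each is the 250 bases before the start site in RefSeq's table, read 5′ to 3′ on the minus strand of GRCr8, at chr14:5736859-5737108 for Mepe, chr14:5840085-5840334 for Dmp1, chr14:5619805-5620054 for Spp1 and chr14:5757243-5757492 for Ibsp. The table's start site lay 27070 bases inside the annotated span of Dmp1 and 891 bases inside that of Spp1, so other start sites of these 2 genes are outside the windows. Capitals mark motif matches.
Mepe: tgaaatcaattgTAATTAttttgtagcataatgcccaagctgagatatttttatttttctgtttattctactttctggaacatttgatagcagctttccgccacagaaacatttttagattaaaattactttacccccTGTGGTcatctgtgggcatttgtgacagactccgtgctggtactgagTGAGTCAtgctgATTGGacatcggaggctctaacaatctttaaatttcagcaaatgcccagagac
Dmp1: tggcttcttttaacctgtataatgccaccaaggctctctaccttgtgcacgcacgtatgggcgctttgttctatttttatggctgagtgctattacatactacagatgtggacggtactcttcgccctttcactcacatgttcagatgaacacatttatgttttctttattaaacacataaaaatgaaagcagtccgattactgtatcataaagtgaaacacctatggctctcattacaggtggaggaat
Spp1: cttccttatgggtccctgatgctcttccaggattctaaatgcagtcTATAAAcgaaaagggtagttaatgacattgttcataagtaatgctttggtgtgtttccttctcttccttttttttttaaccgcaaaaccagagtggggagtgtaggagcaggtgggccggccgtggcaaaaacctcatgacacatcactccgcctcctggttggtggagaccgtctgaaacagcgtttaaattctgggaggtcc
Ibsp: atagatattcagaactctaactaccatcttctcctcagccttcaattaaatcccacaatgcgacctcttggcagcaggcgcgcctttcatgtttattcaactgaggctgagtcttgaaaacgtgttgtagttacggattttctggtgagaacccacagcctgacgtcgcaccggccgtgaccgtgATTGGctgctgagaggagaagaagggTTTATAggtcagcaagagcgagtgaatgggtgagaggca

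The motifs searched on both strands were the RUNX core TGTGGT, the TCF/LEF core CTTTGA, the TATA box TATAAA, the CCAAT box, the homeodomain core TAATTA and the AP-1 site TGANTCA. The Mepe window held TAATTA 238 bases, TGTGGT 112 bases, an AP-1 match 65 bases and a reversed CCAAT box 53 bases before the start. The Ibsp window held a reversed CCAAT box 65 bases and a reversed TATA box 39 bases before it, and the Spp1 window a TATA match 204 bases before it. No motif of the set was in the Dmp1 window, and CTTTGA was in none of the 4. Of 33469 promoters, 14.5% held the RUNX core, 13.9% the TCF/LEF core, 12.9% the TATA box, 34% the CCAAT box, 4.86% TAATTA and 6.34% the AP-1 site, and a match is a match of letters only.

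All values are log2 intensities, on which 1 unit is a 2-fold difference. Treatments were compared within a cell type by limma with Benjamini-Hochberg adjustment over all genes tested (11859 in osteocytes, 11412 in osteoblasts, 11600 in lining cells), and a gene was called where the adjusted p was under 0.05. SE stands for standard error, and both doses of a day share the vehicle arrays of that day. The labels do not tie arrays to rats, so p-values measure the spread between arrays. Array titles carry 3 runs of numbers, for days 8 to 85, day 183 and days 197 to 309, whose meaning is not stated, and levels were compared between days only within a run. Of 6 osteocyte markers on the array, Ackr3 was above the array median on 39 of 40 vehicle arrays of osteocytes, 1 of osteoblasts and 0 of lining cells, and Pdpn on 37, 22 and 19. Sost, the sclerostin gene, was above it on 11, 0 and 0 and Irx5 on 36, 33 and 28, while Mef2c and Capg were on all 40 in each cell type and so do not set the captures apart by this count. Of 6 osteoclast genes, Acp5, Ctsk, Tcirg1 and Nfatc1 were above it on all 40 vehicle arrays of each cell type, Calcr on 3, 1 and 2 and Clcn7 on 9, 0 and 7. In such bulk captures, fewer cells of a type and less RNA per cell cannot be told apart.

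Without antibody, all 4 genes were higher in osteocytes than in either surface cell type. In vehicle arrays, brought to 1 distribution by quantile normalization because the deposited values of the 3 cell types appear to have been normalized apart, Mepe had a lowest, median and highest value of 8.22, 11.12 and 12.97 in osteocytes, 4.06, 5.45 and 8.28 in osteoblasts and 4.52, 5.32 and 8.24 in lining cells (n = 40 each). Dmp1 had 9.50, 10.99 and 11.96 in osteocytes, 4.98, 6.86 and 9.32 in osteoblasts and 3.65, 6.23 and 8.74 in lining cells. For Dmp1 the osteocyte arrays lay wholly above those of both other cell types, while for Mepe the lowest osteocyte array fell just inside them. Spp1 ran over 8.37, 10.35 and 11.26 in osteocytes, 5.57, 6.79 and 9.47 in osteoblasts and 5.85, 7.57 and 10.09 in lining cells. Ibsp ran over 8.72, 9.73 and 10.60 in osteocytes, 5.61, 7.64 and 10.09 in osteoblasts and 5.46, 7.27 and 10.07 in lining cells, so its ranges overlapped widely.

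Osteocytes exceeded osteoblasts by 5.22 for Mepe (SE 0.18, limma adjusted p = 2.94e-54), 3.77 for Dmp1, 3.19 for Spp1 and 1.99 for Ibsp, and all 4 were called, where 31.7% of genes were called higher. Against lining cells the differences were 5.04, 4.41, 2.48 and 2.23, again all called, where 27.5% of genes were called higher. By day, the osteocyte minus osteoblast difference stayed between 4.33 and 6.12 for Mepe, 2.67 and 4.36 for Dmp1, 2.32 and 3.71 for Spp1, and 0.96 and 2.50 for Ibsp over the 8 days. Against lining cells it stayed between 3.73 and 6.12 for Mepe, 3.29 and 5.52 for Dmp1, 1.59 and 3.17 for Spp1, and 1.19 and 2.81 for Ibsp, and Dmp1 exceeded Mepe on day 267 (5.52 and 5.17) and day 309 (4.76 and 4.10). The family split between the surface cells. Osteoblasts were above lining cells in Dmp1 by 0.65 (limma adjusted p = 0.000295, where 16.7% of genes were called higher) and below them in Spp1 by 0.70 (difference -0.70, limma adjusted p = 3.26e-06, where 16.8% were called lower). Mepe and Ibsp, at -0.19 and 0.25, were not called there. With the values as deposited, the Spp1 difference was -0.19 and no longer called and the Ibsp difference was 0.73 and called. Mepe was then at 0.36 and not called (limma adjusted p = 0.0527), where the median over all genes was 0.42. Osteocytes minus osteoblasts was then 1.29 for Ibsp, where the median over all genes was -0.67. A score of 19 marrow cell markers, centred over all arrays, averaged -0.76 on osteocyte, 0.60 on osteoblast and 0.15 on lining cell arrays. The 6 osteoblast markers on the array also had their highest vehicle mean in osteocyte captures, among them Serpinf1 at 9.30 in osteocytes, 7.46 in osteoblasts and 6.44 in lining cells, and Pth1r, the parathyroid hormone receptor, at 5.76, 3.98 and 3.82. With the marrow score as covariate all 4 genes were still called higher in osteocytes than in either surface cell type. The part of the osteoblast markers in the family's differences was not tested.

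**Figure D1:**
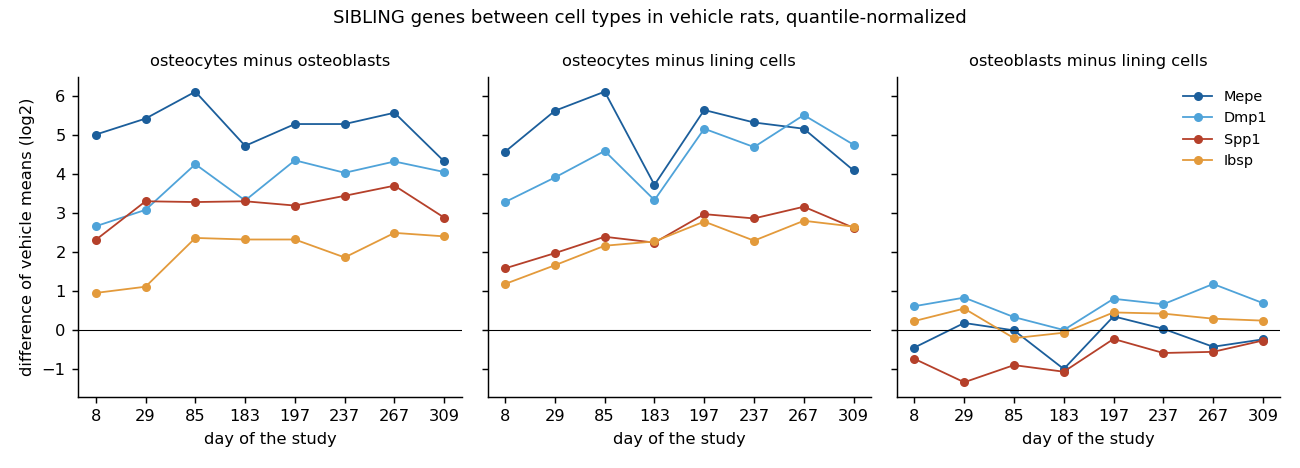
Difference of the vehicle group means between cell types (y axis, log2, quantile-normalized) by day (x axis, even spacing), with 1 point per gene and day and 1 panel per pair of cell types. All points of osteocytes minus osteoblasts and of osteocytes minus lining cells lie above 0, with Mepe at 4.33 to 6.12 and Ibsp at 0.96 to 2.50 against osteoblasts.

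In osteocytes under dosing the family split into 2 pairs: Mepe and Dmp1 rose with the antibody, and Spp1 and Ibsp did not. Averaged over the 4 dosing days with both doses weighted equally, Mepe was 1.12 above vehicle (SE 0.19, limma adjusted p = 1.22e-05, 30 of 37 antibody arrays above the vehicle mean of their day) and Dmp1 0.79 (SE 0.13, adjusted p = 1.29e-05, 31 of 37). Spp1, at -0.34 (adjusted p = 0.136), and Ibsp, at -0.22 (adjusted p = 0.168), were not called. These 2 of 4 stand beside 4.59% of all genes called higher and 2.31% called lower. In osteoblasts the same means were -0.45, -0.29, -0.42 and -0.03 for Mepe, Dmp1, Spp1 and Ibsp, in lining cells -0.54, -0.33, -0.28 and -0.12, and limma called none, beside 5.77 and 0.216% of all genes called in either direction. At an unadjusted p under 0.05 some of the single-day responses in these cells passed, 5 of 16 in osteoblasts and 4 of 16 in lining cells. A fit of all arrays tested the difference between cell types itself. The response in osteocytes exceeded that in osteoblasts by 1.58 for Mepe (SE 0.31, limma adjusted p = 0.000222) and 1.08 for Dmp1 (SE 0.25, limma adjusted p = 0.00231), beside 2.32% of genes called higher. It exceeded that in lining cells by 1.67 for Mepe (SE 0.31) and 1.12 for Dmp1 (SE 0.25, limma adjusted p = 6.03e-05 and 0.00121), beside 2.13%. For Spp1 and Ibsp these differences were not called.

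Mepe in osteocytes was not called on day 8 and was higher at 50 mg/kg on each later dosing day. On day 8 its 5 arrays at 50 mg/kg had 11.76, 11.37, 12.08, 12.56 and 11.57, against 11.51, 12.03, 11.26, 11.78 and 11.64 in vehicle. On day 29 they had 12.29, 13.38, 13.51, 13.31 and 13.31, against 10.33, 11.84, 12.26, 11.35 and 11.99 in vehicle. The groups overlapped on day 8 and were apart on day 29, if only by the lowest treated array. On day 85 the 3 arrays at 50 mg/kg had 13.59, 13.45 and 13.38, against 11.33, 11.61, 12.39, 11.83 and 11.03 in vehicle, and on day 183 the values were 12.41, 12.84, 12.73, 12.86 and 13.24, against 10.54, 9.65, 9.82, 10.00 and 9.95 in vehicle. Neither pair of groups overlapped, as for 5.32 and 6.82% of all genes (2.86% on day 29). The differences were 0.22 on day 8 (with 0.928% of all genes called in either direction), 1.61 on day 29 (SE 0.43, limma adjusted p = 0.0105), 1.84 on day 85 (SE 0.50, adjusted p = 0.0087) and 2.82 on day 183 (SE 0.43, adjusted p = 1.31e-06). At 3 mg/kg on day 183 the arrays had 11.94, 11.53, 11.44, 12.15 and 11.15, all above vehicle (as for 0.936% of genes), yet the difference of 1.65 was not called over all genes (SE 0.43, limma adjusted p = 0.315, unadjusted p = 0.000256). The day 29 call ended without vehicle replicate 1 (1.30, adjusted p = 0.0814) and with a score of marrow cell markers as covariate (1.14, adjusted p = 0.118), on a day when 3 of 5 granulocyte and 2 of 4 B-lineage markers were lower at 50 mg/kg, and the day 85 call with array weights (adjusted p = 0.224).

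Dmp1 kept the same calendar with smaller steps. Its day 29 arrays had 11.87, 12.49, 12.68, 12.02 and 12.19 at 50 mg/kg, against 10.11, 11.11, 11.21, 10.72 and 11.33 in vehicle. On day 85 they had 12.66, 12.71 and 12.81, against 11.26, 11.31, 11.63, 11.41 and 11.16 in vehicle. On day 183 they had 11.97, 12.03, 12.11, 12.06 and 12.09, against 10.26, 9.18, 10.09, 9.68 and 10.19 in vehicle. On all these days every treated array was above every vehicle array, and on day 183 the treated arrays were nearly equal. The differences were 1.35 (SE 0.30, limma adjusted p = 0.0016), 1.37 (SE 0.35, adjusted p = 0.0051) and 2.17 (SE 0.30, adjusted p = 1.4e-07), after 0.10 on day 8. Mepe and Dmp1 were thus 2 of the 4 genes called higher at 50 mg/kg on days 29, 85 and 183, beside 3.24, 6.64 and 4.93% of all genes. At 3 mg/kg the day 183 values of 11.27, 10.98, 10.51, 11.36 and 10.26 again lay above the vehicle values, the lowest by less than the last digit given, with a difference of 1.0 (limma adjusted p = 0.632). No gene of the family was called at 3 mg/kg on a dosing day in any cell type by limma, and in osteocytes 3 of these 16 differences had an unadjusted p under 0.05. Few genes of any kind were called at 3 mg/kg: 0.00843, 0.00, 1.46 and 0.00% in osteocytes on days 8, 29, 85 and 183, and at most 0.605% in osteoblasts (day 183) and 0.0345% in lining cells (day 85). Array weights ended the day 85 call of Dmp1 as well (adjusted p = 0.187). Of 6 osteocyte markers tested, Mef2c (3.03), Ackr3 (2.78) and Pdpn (2.48) were also higher at 50 mg/kg on day 183. On day 29 Ackr3 (2.52), Mef2c (2.18), Pdpn (1.98) and Sost (0.75) were higher and Capg (-0.63) was lower. On day 85 Pdpn (2.72), Mef2c (2.56), Ackr3 (2.23) and Sost (0.48) were higher. The part of these markers in the result was not tested.

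**Figure D2:**
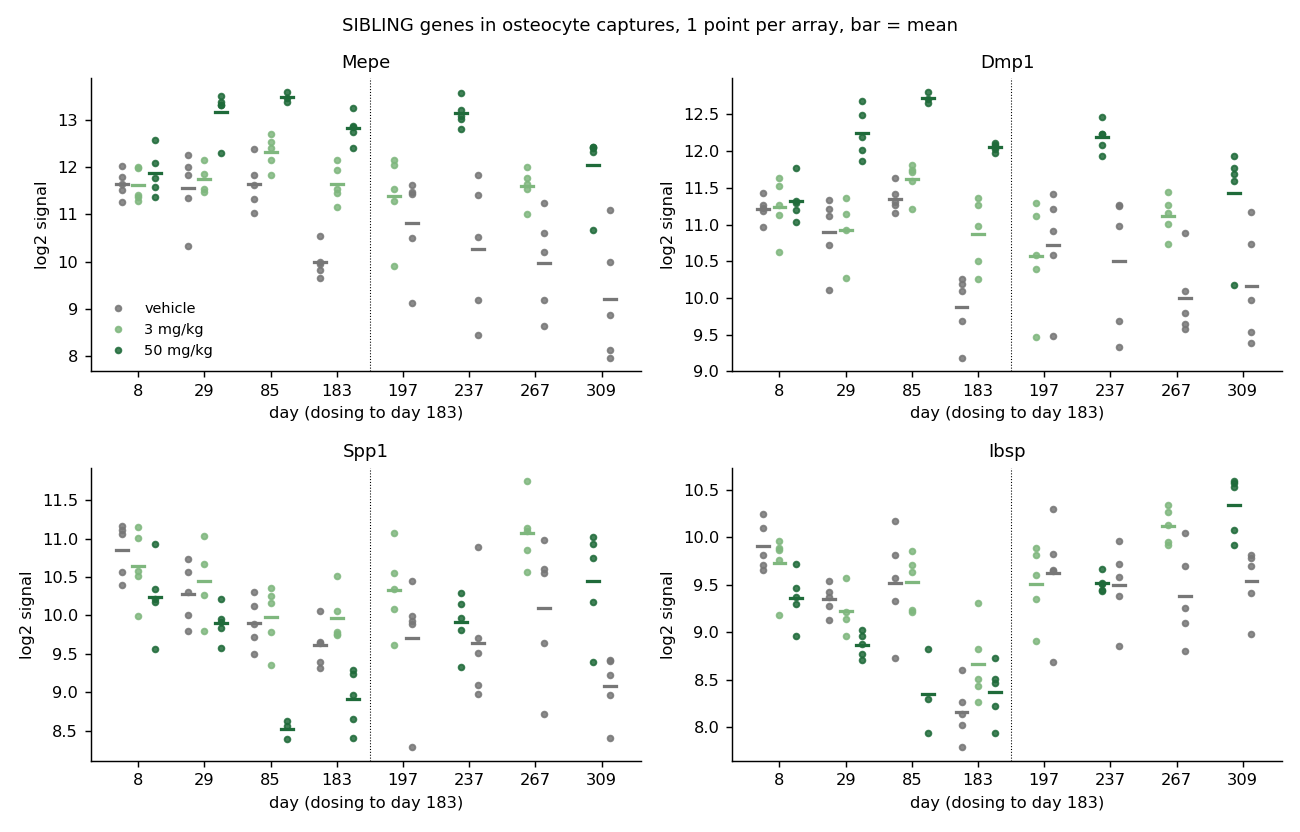
Log2 intensity of the 4 genes on every osteocyte array by day, with points for vehicle, 3 mg/kg and 50 mg/kg, a bar at each group mean and a dotted line at the end of dosing. At 50 mg/kg every Mepe and Dmp1 array lies above every vehicle array on days 29, 85, 183 and 237, while Spp1 lies below vehicle on days 85 and 183.

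Spp1 in osteocytes went the other way late in dosing at 50 mg/kg. On day 85 it had 8.39, 8.56 and 8.63 at 50 mg/kg, against 9.72, 10.12, 10.30, 9.89 and 9.50 in vehicle, while 3 mg/kg gave 10.25, 10.16, 9.78, 9.36 and 10.36. On day 183 it had 8.97, 9.24, 9.29, 8.40 and 8.65 at 50 mg/kg, against 9.31, 9.39, 9.65, 9.64 and 10.06 in vehicle. On both days the 50 mg/kg arrays lay below all vehicle arrays, by a narrow margin on day 183, as for 3.04 and 2.67% of all genes. The differences were -1.38 on day 85 (SE 0.36, limma adjusted p = 0.00572) and -0.70 on day 183 (adjusted p = 0.189). On day 8 (-0.61) and day 29 (-0.38) the groups overlapped.

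Ibsp fell beside Spp1 on day 85. It had 8.82, 7.94 and 8.30 at 50 mg/kg, against 9.33, 9.57, 10.17, 9.81 and 8.73 in vehicle, with a difference of -1.17 (SE 0.25, limma adjusted p = 0.000643), and the groups overlapped by 1 treated array. Spp1 and Ibsp were 2 of 4 genes called lower there, beside 3.50% of all genes. On day 29 the values of 8.88, 8.96, 8.77, 9.02 and 8.71 at 50 mg/kg lay just below the vehicle values of 9.13, 9.42, 9.54, 9.28 and 9.37 (difference -0.48, limma adjusted p = 0.197), and such a separation was seen for 2.12% of all genes. On day 183 the difference was 0.21 and not called. The osteoclast markers moved with Spp1 and Ibsp on day 85, when 3 of 6 tested were lower at 50 mg/kg: Ctsk, the collagen-degrading protease, by -1.59, Acp5, the acid phosphatase, by -1.09 and Tcirg1, a proton pump subunit, by -0.93. Their part in the result was not tested. The day 85 group holds 3 arrays, and array weights ended both calls (adjusted p = 0.158 for Spp1 and 0.119 for Ibsp).

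**Figure D3:**
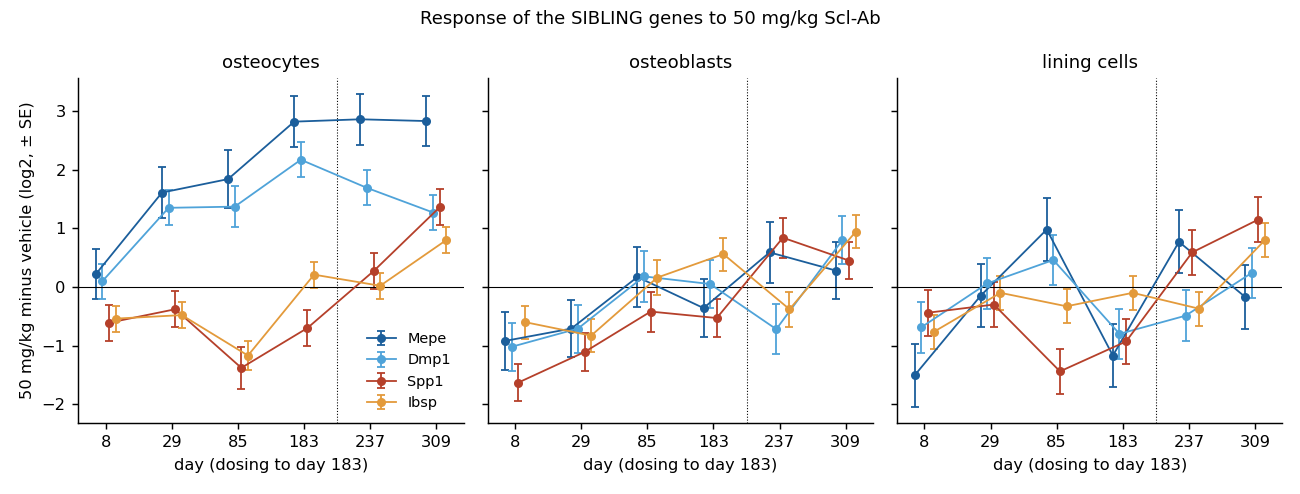
Difference of the 50 mg/kg group from vehicle (log2, limma estimate with bars of 1 SE) for the 4 genes by day in osteocytes, osteoblasts and lining cells, with the end of dosing dotted. In osteocytes Mepe runs over 0.22, 1.61, 1.84 and 2.82 on the 4 dosing days and Spp1 over -0.61, -0.38, -1.38 and -0.70.

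In osteoblasts at 50 mg/kg Spp1 was called lower on days 8 and 29 and Ibsp on day 29. Mepe and Dmp1 were not called on any dosing day. All 4 genes had a lower mean at 50 mg/kg than in vehicle on day 8. Beside Spp1, these were 6.51 against 7.43 for Mepe, 8.11 against 9.13 for Dmp1 and 9.04 against 9.64 for Ibsp. Of the 4 limma tests of that day, 3 had an unadjusted p under 0.05 and 1 was called. On day 8 Spp1 had 7.46, 7.34, 7.83, 7.24 and 7.64 at 50 mg/kg, against 9.54, 9.60, 8.88, 8.54 and 9.08 in vehicle. These groups were apart, as for 2.04% of genes, and the difference was -1.63 (SE 0.32, limma adjusted p = 0.000536), which made Spp1 1 of 4 called lower beside 2.99% of all genes. With both doses weighted equally the day 8 difference was -1.08 (SE 0.29, limma adjusted p = 0.0187, beside 1.11% of genes called lower), and leaving out any of 4 arrays (vehicle replicate 1 or 2, 3 mg/kg replicate 2 or 4), or the marrow score as covariate (adjusted p = 0.0515), ended that call. On day 8, 7 of 10 erythroid markers were higher in osteoblasts at 50 mg/kg (median 0.95), and the mean marrow score was 0.78, against 0.39 in vehicle. Apart from the fit with the marrow score as covariate, their part was not tested. On day 29 Spp1 had 6.88, 7.48, 6.81, 6.39 and 7.10 at 50 mg/kg, against 6.85, 7.63, 8.99, 8.33 and 8.41 in vehicle. The groups overlapped, with a difference of -1.11 (SE 0.32, limma adjusted p = 0.00716), and Ibsp was lower by -0.83 (adjusted p = 0.0197). Both were called on a day when 20.6% of all genes were called lower. Of the 5 osteoclast markers tested, Acp5 (-1.16), Ctsk (-1.15) and Tcirg1 (-0.75) were lower on day 8 and Acp5 (-1.23) and Ctsk (-1.13) on day 29, and their part in the Spp1 result was not tested. With the signal range of the arrays as covariate the day 29 Spp1 difference was -0.87 (adjusted p = 0.101). The Ibsp call ended with quantile normalization (-0.43) and without vehicle replicate 3 or 50 mg/kg replicate 1.

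In lining cells Spp1 on day 85 was the one call of the family against vehicle. It had 7.16, 5.56, 7.06, 5.49 and 6.34 at 50 mg/kg, against 6.81, 7.84, 7.72, 8.31 and 8.16 in vehicle, and the groups overlapped. The difference was -1.44 (SE 0.39, limma adjusted p = 0.0456), 1 of 4 called lower beside 0.621% of all genes, and leaving out any of 7 of the 10 arrays, or 4 of 8 other settings, ended the call. Mepe in these cells was scattered within groups, with day 8 values of 4.88, 4.68, 4.91, 7.45 and 6.54 at 50 mg/kg, against 7.23, 7.05, 7.53, 6.11 and 8.09 in vehicle. Ibsp at 3 mg/kg on day 85, with 8.46, 8.22, 8.05, 8.48 and 8.32, lay above all vehicle arrays, with 7.55, 7.77, 7.87, 7.64 and 7.29, as did 0.578% of genes, and the difference of 0.68 was not called (limma adjusted p = 0.481).

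The contrast of the doses set Mepe and Dmp1 apart from Spp1 and Ibsp in both directions. Its differences do not use the vehicle arrays, while its SE and p come from the fit of all arrays of the cell type. Over the 4 dosing days in osteocytes, Mepe had a lowest, median and highest value of 11.37, 12.85 and 13.59 at 50 mg/kg (18 arrays), against 11.15, 11.86 and 12.70 at 3 mg/kg (19 arrays). Dmp1 had 11.04, 12.04 and 12.81 at 50 mg/kg, against 10.26, 11.26 and 11.81 at 3 mg/kg. Spp1 had 8.39, 9.56 and 10.93 at 50 mg/kg, against 9.36, 10.25 and 11.15 at 3 mg/kg. All 4 genes were called: Mepe was higher at 50 mg/kg by 1.0 (SE 0.23, limma adjusted p = 0.000764) and Dmp1 by 0.92 (SE 0.16, adjusted p = 8.63e-06), and Spp1 was lower, at -0.87 (SE 0.16, adjusted p = 4.07e-05), as was Ibsp, at -0.55 (SE 0.11, adjusted p = 0.000216). Of all genes, 6.84% were called higher and 8.12% lower in that contrast. Leaving out any 1 array ended none of these calls, and the marrow score as covariate took the Mepe difference to 0.63 (adjusted p = 0.0721).

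Spp1 was lower at 50 than at 3 mg/kg in the other two cell types as well. In osteoblasts it had 6.00, 7.04 and 7.83 at 50 mg/kg, against 6.56, 8.03 and 9.34 at 3 mg/kg (19 arrays each), and in lining cells 5.33, 7.66 and 10.05, against 6.27, 8.77 and 9.57 (20 arrays each). The ranges overlapped, with medians about 1 unit apart. The differences were -0.99 (SE 0.17, limma adjusted p = 4.82e-05) in osteoblasts, beside 1.13% of genes called lower, and -1.0 (SE 0.20, limma adjusted p = 0.00181) in lining cells, beside 0.302%. Mepe, Dmp1 and Ibsp differed by 0.00, -0.17 and -0.29 in osteoblasts and by 0.16, 0.18 and -0.40 in lining cells, none called. By day, the Spp1 difference in lining cells was called on day 85 (-2.21, SE 0.39, limma adjusted p = 0.000862, beside 1.03% of genes called lower) and that in osteocytes on days 85 (-1.46, beside 3.09%) and 183 (-1.06, adjusted p = 0.0402, beside 0.616%).

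Markers of other cells moved in the same contrast. Of the osteoclast markers, Ctsk (-0.84), Acp5 (-0.61) and Tcirg1 (-0.57) were lower at 50 than at 3 mg/kg in osteocytes, 3 of 6 tested, and Ctsk (-1.28), Acp5 (-1.04) and Tcirg1 (-0.29) in osteoblasts, 3 of 5. In lining cells none of 6 was called by limma, with Ctsk at -0.54 (limma adjusted p = 0.0676), Acp5 at -0.38 and Tcirg1 at -0.10. Per array, the mean of the listed osteoclast markers ran over 6.29 to 7.38 at 50 mg/kg and 6.94 to 7.40 at 3 mg/kg in osteocytes. It ran over 6.12 to 7.10 and 6.82 to 7.53 in osteoblasts, and over 6.12 to 7.47 and 6.60 to 7.58 in lining cells. The osteocyte markers moved with Mepe and Dmp1 in osteocytes, where Pdpn (1.70), Ackr3 (1.50), Mef2c (1.46) and Sost (0.39) were higher, 4 of 6 tested, and Capg lower (-0.26). Also lower in osteocytes were 4 of 10 erythroid, 3 of 5 granulocyte and 2 of 4 B-lineage markers, and in osteoblasts 4 of 6 osteoblast markers were higher. Apart from the fit with the marrow score as covariate, given above for Mepe, the part of these markers in the family's differences was not tested.

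**Figure D4:**
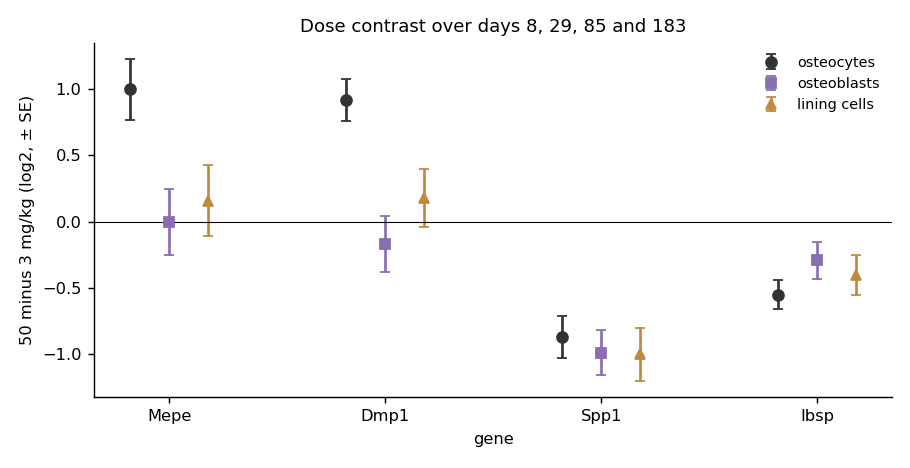
Difference of 50 mg/kg from 3 mg/kg over the 4 dosing days (log2, limma estimate with bars of 1 SE) for each gene in the 3 cell types. In osteocytes Mepe (1.0) and Dmp1 (0.92) lie above 0 and Spp1 (-0.87) and Ibsp (-0.55) below it, and in osteoblasts and lining cells only Spp1 was called (-0.99 and -1.0).

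After dosing had stopped, the rise of Mepe and Dmp1 in osteocytes was still present in rats that had received 50 mg/kg. On day 237 Mepe had 13.21, 13.08, 12.81, 13.01 and 13.56 at 50 mg/kg, against 10.52, 11.41, 9.18, 11.82 and 8.45 in vehicle, with no overlap, as for 3.52% of genes. The difference was 2.86 (SE 0.43, limma adjusted p = 4.59e-07), and that of Dmp1, with 12.46, 12.23, 12.24, 12.08 and 11.94, against 10.98, 11.26, 9.68, 11.25 and 9.33 in vehicle, was 1.69 (SE 0.30, adjusted p = 2.22e-05). Spp1 (0.27) and Ibsp (0.02) were not called, so 2 of 4 were higher beside 7.04% of all genes. The osteocyte markers Ackr3 (3.11), Mef2c (2.78), Pdpn (2.20) and Sost (0.58) were also higher, 4 of 6 tested, and 4 of 6 osteoblast markers were lower (median -1.34). Their part was not tested. The 50 mg/kg response on day 237 differed from that on day 183 by 0.04 for Mepe (limma adjusted p = 0.993) and -0.48 for Dmp1 (adjusted p = 0.799), which is a difference not detected rather than one shown to be absent.

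By day 309 all 4 genes were higher in osteocytes of these rats. Mepe had 12.43, 12.42, 10.66, 12.31 and 12.41 at 50 mg/kg, against 8.88, 11.10, 8.13, 7.96 and 9.99 in vehicle. Spp1 had 10.93, 10.17, 9.39, 11.02 and 10.75, against 9.40, 8.97, 9.23, 8.40 and 9.42 in vehicle. Ibsp had 10.08, 10.53, 9.92, 10.59 and 10.57, against 9.41, 9.81, 9.70, 8.98 and 9.78 in vehicle. Ibsp arrays did not overlap, as for 2.77% of genes higher there, and for Mepe and Spp1 the treated replicate 3 alone fell inside the vehicle range. The differences were 2.83 for Mepe (SE 0.43, limma adjusted p = 1.5e-06), 1.27 for Dmp1 (SE 0.30, adjusted p = 0.00167), 1.36 for Spp1 (SE 0.31, adjusted p = 0.000968) and 0.80 for Ibsp (SE 0.22, adjusted p = 0.00561), beside 5.36% of genes called higher. The vehicle osteocytes of these days held more marrow signal: the mean marrow score was -1.0 at 50 mg/kg, against -0.29 in vehicle, on day 237, and -0.79 against -0.02 on day 309. Of 10 erythroid markers, 7 were lower on day 237 and 6 on day 309, and the osteoclast markers Acp5 (0.99) and Tcirg1 (0.68) were higher on day 309. On that day the osteocyte markers Pdpn (1.31), Ackr3 (1.29) and Mef2c (1.18) were higher, 3 of 6 tested. So were 3 of 3 skeletal muscle markers (median 0.97), 2 of 6 osteoblast markers and 2 of 10 macrophage markers. Lower were 3 of 5 granulocyte and 3 of 10 macrophage markers. Apart from the marrow score, the part of all these markers was not tested. With the marrow score as covariate the day 309 differences of Dmp1 (0.61), Spp1 (0.79) and Ibsp (0.53) were no longer called, and that of Mepe was.

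Rats that had received 3 mg/kg showed no call in osteocytes on day 197 by limma (1.11% of all genes were called in either direction), where Mepe differed by 0.56, Dmp1 by -0.15, Spp1 by 0.62 and Ibsp by -0.11. On day 267 Mepe had 11.76, 11.01, 11.64, 12.01 and 11.54 at 3 mg/kg, against 9.19, 11.24, 10.21, 10.61 and 8.63 in vehicle, and the groups overlapped by 1 array. The differences were 1.62 for Mepe (SE 0.43, limma adjusted p = 0.0174), 1.12 for Dmp1 (SE 0.30, adjusted p = 0.0194), 0.74 for Ibsp (SE 0.22, adjusted p = 0.0327) and 0.98 for Spp1 (SE 0.31, adjusted p = 0.0562), beside 3.46% of genes called higher. Quantile normalization and the signal range as covariate each ended the 3 calls. So did leaving out vehicle replicate 1 or 5 or 3 mg/kg replicate 1 or 4, and for Ibsp also replicate 3 of either group. In osteoblasts Ibsp was higher on day 309 in rats that had received 50 mg/kg, with 8.62, 8.10, 8.66, 8.30 and 8.26 at 50 mg/kg, against 7.61, 7.71, 6.87, 7.10 and 7.95 in vehicle. These groups did not overlap (3.28% of genes), and the difference was 0.94 (SE 0.28, limma adjusted p = 0.021), beside 8.63% of genes called higher. Quantile normalization, array weights, the signal range as covariate and a fit of the compared groups alone each ended that call, as did leaving out vehicle replicate 3 or 4 or 50 mg/kg replicate 1 or 3. The osteoclast markers Acp5 (1.23) and Ctsk (1.03), 2 of 5 tested, were higher there too, and their part was not tested. Lining cells had no call after dosing by limma, with 4 of 16 differences at an unadjusted p under 0.05.

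Vehicle levels set the ground for these differences, since they were not constant. Mepe in vehicle osteocytes lay between 9.65 and 10.54 on day 183, a day with a run of title numbers of its own, and no other day can be set against it. Within the first run, vehicle osteoblasts of day 85 were lower than those of day 8 in Dmp1 (-1.39, limma adjusted p = 0.00511), Spp1 (-1.69, adjusted p = 3.15e-05) and Ibsp (-1.70, adjusted p = 2.46e-06), when 25.9% of all genes were called lower. Vehicle lining cells were lower in Spp1 (-1.45) and Ibsp (-1.19), beside 2.85%, and vehicle osteocytes in Spp1 (-0.95), beside 26.3%. With the signal range as covariate none of these lining cell or osteocyte calls remained, nor did that of Dmp1 in osteoblasts. The calls between days in vehicle osteoblasts still numbered 3 to 4 under every alternative, so a further call was gained under that setting. In the last run Mepe in vehicle osteocytes was lower on day 309 than on day 197 (-1.61, limma adjusted p = 0.0197), beside 2.61% of genes, and leaving out any of 5 of 10 arrays, the signal range as covariate or a fit of the compared groups alone ended that call.

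The response itself, antibody minus vehicle of the same day, grew in osteocytes between days 8 and 183. With both doses weighted equally, Mepe differed by 0.10 on day 8, 0.90 on day 29, 1.26 on day 85 and 2.24 on day 183, and Dmp1 by 0.06, 0.69, 0.82 and 1.59. On day 183, 10 of 10 antibody arrays were above the vehicle mean for both genes (limma adjusted p = 5.02e-05 and 4.67e-05), 2 of 4 genes beside 1.75% of all genes called higher. Mepe alone was called on day 85 (SE 0.39, limma adjusted p = 0.0382, beside 4.43%), and 8 of 13 single arrays ended that call. The response on day 183 exceeded that on day 8 by 2.14 for Mepe (SE 0.53, limma adjusted p = 0.0323) and 1.53 for Dmp1 (SE 0.37, limma adjusted p = 0.0287), beside 0.413% of genes called higher, and leaving out any of 8 of 30 arrays ended each call. Mepe group means on days 8 and 183 were 11.64 and 9.99 in vehicle, 11.61 and 11.64 at 3 mg/kg, and 11.87 and 12.82 at 50 mg/kg. Days 8 and 183 lie in different runs of title numbers, whose part was not tested. Higher antibody levels and lower vehicle levels on day 183 can therefore not be told apart. In osteoblasts the Ibsp response on day 183 exceeded that on day 29 by 1.27 (SE 0.34, limma adjusted p = 0.00664), beside 13.7%, and the signal range or the marrow score as covariate ended it. The 50 mg/kg response of osteoblast Spp1 was higher on day 237 than on day 183 by 1.37 (SE 0.47, limma adjusted p = 0.0439), beside 2.37%, and 12 of 19 single arrays ended that call.

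How far the genes part company was tested on the difference of 2 genes within each array, which cancels whatever scales an array as a whole. For each of 18 combinations of gene pair and cell type, the antibody minus vehicle change of that difference over the dosing days was tested by a two-sided permutation test, with p adjusted over the 18. In osteocytes Mepe rose over Dmp1 by 0.33 (permutation adjusted p = 0.000630), over Spp1 by 1.40 (adjusted p = 0.000180) and over Ibsp by 1.29 (adjusted p = 0.000180). Dmp1 rose over Spp1 by 1.07 (permutation adjusted p = 0.000756) and over Ibsp by 0.96 (adjusted p = 0.000180). No parting of Spp1 from Ibsp was detected, at -0.11 (permutation adjusted p = 0.482). No pair passed in osteoblasts, where Spp1 against Ibsp came nearest (-0.39, permutation adjusted p = 0.0801), or in lining cells. Day by day, 2 of 72 exact tests passed, both in osteocytes on day 183, for Mepe over Dmp1 (0.65, exact adjusted p = 0.0360) and Mepe over Ibsp (1.88, exact adjusted p = 0.0360).

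Arrays of a group varied together in Mepe and Dmp1. The deviations of single arrays from their group mean had Pearson's r = 0.89 and Spearman's rho = 0.84 between these genes over 97 osteocyte arrays. The permutation p was 0.0001 for both, the smallest that the permutations can give, and 0.000138 and 0.000150 after adjustment over 18 pairs. Without the 2 arrays farthest from the median r was 0.88, and within the 3 runs of title numbers it was 0.79, 0.73 and 0.94. In osteoblasts r was 0.76, and in lining cells 0.74 with 0.47 in the last run. The other pairs had r between 0.14 and 0.64. Mepe and Spp1 in osteocytes had 0.64 overall but -0.18 on day 183. Arrays of a group share their day and treatment, and the genes of an array share its capture.

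**Figure D5:**
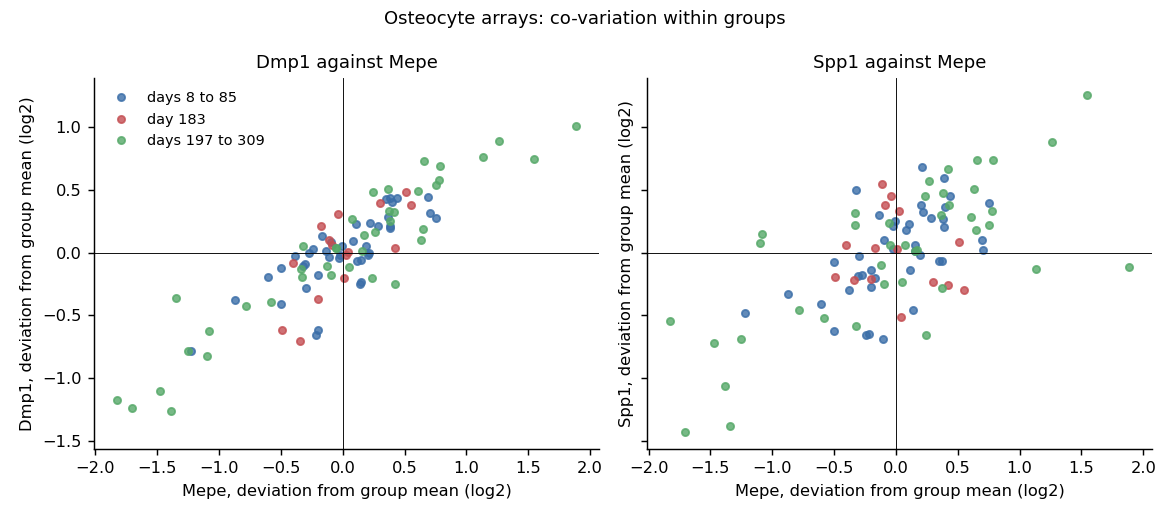
Deviation of each osteocyte array from its group mean (log2) in Mepe on the x axis against Dmp1 (left) and Spp1 (right) on the y axis, 97 arrays per panel, coloured by run of title numbers. Dmp1 follows Mepe closely (r = 0.89) and Spp1 less closely (r = 0.64).

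Over the 36 treated groups, the group mean minus the vehicle mean of the same cell type and day was set against that of 11127 genes, as a description, since both doses of a day share vehicle arrays. Mepe and Dmp1 had a Pearson correlation of 0.88, and Spp1 and Ibsp of 0.69, while the 4 mixed pairs lay between 0.18 and 0.35. Dmp1 itself was the gene most like Mepe, followed by Map4, a microtubule-associated protein (0.88), and Pmp22, a myelin and membrane protein (0.86). The genes most like Dmp1 were Fat1, a giant cadherin (0.92), Anxa4, a calcium-dependent phospholipid-binding protein (0.89), and Amotl1 (0.88). Those most like Spp1 were Slc9b2, a sodium-proton exchanger (0.88), Ctsk (0.85) and Cp, the copper carrier ceruloplasmin (0.85). Those most like Ibsp were Synpo, an actin-associated protein (0.86), Limch1 (0.85) and the chemokine Cxcl12 (0.83).

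Genes that process or bind these proteins moved in part beside Mepe and Dmp1 in osteocytes. Of 16 tested processing enzymes and receptors, 4 were higher and 1 lower at 50 than at 3 mg/kg over the dosing days, with a median of 0.04 against -0.01 over all genes, of which 6.84% were called higher and 8.12% lower. The largest were Cd44, a receptor of Spp1 and hyaluronan (0.77), Fam20c, the kinase that phosphorylates the family (0.73), and Mmp9, a matrix metalloproteinase (-0.69). On day 183 at 50 mg/kg 4 were higher and none lower, led by Fam20c (1.38), Cd44 (1.27) and the crosslinking enzyme Tgm2 (0.99), with a median of 0.26 against 0.00, beside 4.93% of all genes called higher. Averaged over doses and dosing days, 5 were higher and 1 lower, beside 4.59% and 2.31% of all genes. On day 237 after 50 mg/kg 4 were higher and 1 lower, beside 7.04% and 6.16%, with Fam20c at 1.75, Cd44 at 1.12 and Mmp2 at -0.94.

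Of 12 tested genes for mineralization enzymes, transporters and inhibitors, 2 were higher and none lower in osteocytes at 50 than at 3 mg/kg, beside 6.84% of all genes called higher. These were Mgp, an inhibitor of calcification (1.94), and Ankh, which exports pyrophosphate (0.90), and the median was 0.02 against -0.01. On day 183 at 50 mg/kg Mgp (3.40) and Ankh (1.37) were higher and the osteocalcin gene Bglap was lower (-1.21), beside 4.93% of all genes called higher and 1.45% lower. On day 237, 2 were higher and 4 lower, beside 7.04% and 6.16%, with Mgp at 2.87, Bglap at -2.11 and Ankh at 1.29. Of 6 transcription regulators of osteoblasts, 3 were higher at 50 than at 3 mg/kg, the homeobox genes Dlx3 (0.79) and Dlx5 (0.48) and the stress-response factor Atf4 (0.25), with a median of 0.25, beside the same 6.84%. In osteoblasts, where neither Mepe nor Dmp1 was called, 4 of 11 mineralization genes rose over the dosing days, led by Sparc, a collagen-binding matrix protein (0.85), Bglap (0.54) and the phosphatase Alpl (0.50), beside 3.59% of all genes called higher.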

How the data were processed

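Vertebral captures of osteocytes, osteoblasts and lining cells were profiled on 294 Affymetrix rat arrays. The deposited values are linear intensities (2.94 to 28282), and the submitters' processing notes list RMA, affy 1.38.1, R 3.0.1 and Affymetrix Expression Console without roles. Their log2 was taken here, since the earlier plan had assumed log2 values. Of 31042 probe sets, 20826 were annotated to 1 gene, and for 14217 genes the probe set of highest mean was taken. Groups follow the labels, and replicate numbers only name arrays, in accession order. Genes above the array median in at least 5 arrays were fitted per cell type (R 4.3.3, limma 3.58.1, statmod 1.5.0, data.table (1.17.8)), with 1 mean per treatment and day and Benjamini-Hochberg adjusted p under 0.05. Cell types in vehicle were compared after quantile normalization, with day in the fit, and responses between cell types in a fit of all arrays. The "response" weights both doses equally. An array's signal range is its log2 value at the 90th percentile less that at the 50th. Captures of 1 rat were not paired, since the labels name no rat. The script's test was checked on simulated data.

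The 4 genes and all lists were chosen with earlier results of these data known. Other named genes are, per list and comparison, up to 3 called members with the largest change, the 3 genes most like each of the 4, and fixed cell type markers. Alternatives were no filter, quantile normalization, the mean of probe sets, array weights, only the compared groups, signal range or marrow score as covariate, 3 arrays of outlying signal range left out, and each array left out in turn. The number of arrays limits the precision, and the sources used here do not give signal over background. Probe sets of several genes or none listed were not used here.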

Additional observations from a re-analysis of the deposited data

Results flagged for a closer look

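Single arrays lay apart from the others of their group in 8 of 236 gene-by-group sets by Dixon's 95% critical value, which chance passes in about 5% of sets. In osteocytes Mepe and Dmp1 were both low on 50 mg/kg day 309 replicate 3, at 10.66 (next array 12.31) and 10.17 (next 11.60). Mepe was low on 50 mg/kg day 29 replicate 1, at 12.29 (next 13.31). Ibsp was low on 3 mg/kg day 8 replicate 3, at 9.18 (next 9.76), and Spp1 on vehicle day 197 replicate 4, at 8.28 (next 9.89). In osteoblasts Mepe was high on 3 mg/kg day 197 replicate 5, at 7.08 (next 5.43). In lining cells at 3 mg/kg on day 183, Spp1 was low on replicate 1, at 6.27 (next 7.94), and Ibsp high on replicate 2, at 7.14 (next 6.29).

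Tests of a difference between responses passed in 8 instances. Between days, these were Mepe (2.14) and Dmp1 (1.53) in osteocytes, day 183 minus day 8, Ibsp in osteoblasts, day 183 minus day 29 (1.27), and Spp1 in osteoblasts at 50 mg/kg, day 237 minus day 183 (1.37). Between cell types, Mepe and Dmp1 responded more in osteocytes than in osteoblasts (1.58 and 1.08) and than in lining cells (1.67 and 1.12).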

How the results depend on the processing

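Counts below are calls among the 4 genes, by limma at the same threshold, and only the larger changes of a count are listed by setting. Over 8 alternatives, the osteocyte count ran from 2 to 5 on the dosing days (3 in the main fit). It ran from 6 to 9 after dosing (9 in the main fit) and from 3 to 4 in the contrast of doses (4 in the main fit). With both doses on the 4 dosing days (3 calls in osteocytes, 1 in osteoblasts, 0 in lining cells), quantile normalization gave 5 in osteocytes, array weights gave 3 in osteoblasts and 1 in lining cells, the compared groups alone gave 2 in osteoblasts and the marrow score as covariate gave 0 there. After dosing (9, 1 and 0), quantile normalization, array weights, the signal range as covariate and the compared groups alone each gave 0 in osteoblasts, and in lining cells array weights gave 3 and the compared groups alone 1. For changes of the response over time (2, 2 and 0), osteocytes had 1 with quantile normalization or the signal range and 4 with array weights. Osteoblasts had 1 with no filter, the mean of probe sets or only the compared groups, and 0 with the signal range or the marrow score. Lining cells had 2 with array weights and 1 with the compared groups alone. For vehicle over days (2, 3 and 2), osteocytes had 1 with quantile normalization or only the compared groups, and 0 under the signal range, and lining cells had 0 with the signal range. Leaving out 1 array at a time gave, for osteocytes, osteoblasts and lining cells, 2 to 4, 0 to 3 and 0 to 0 calls on the dosing days, 6 to 10, 0 to 1 and 0 to 0 after dosing, 0 to 2, 1 to 2 and 0 to 0 over time, and 1 to 3, 3 to 5 and 0 to 2 in vehicle. The contrast of 50 with 3 mg/kg over the dosing days kept counts of 4, 1 and 1 with each single array left out. Of the single results under the other alternatives, 58 lost a call and 48 gained one. The other 2948 kept their side of the threshold or, for correlations, stayed close to the main value. Of results called in either fit, 0 reversed. Direction was not followed where neither fit gave a call. Mepe in osteoblasts minus lining cells, for example, was -0.19 in the main fit and 0.36 with the values as deposited. The causes were not tested. No paired analysis was possible because the labels give no rat or replicate numbers. Groups of 3 to 5 arrays limit what can be detected.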
